A study of Mus musculus with 69 samples.

Results

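The genes of the motile cilium were followed across mouse lungs that had received titanium dioxide nanoparticles. They comprised 37 genes named for motile, multiciliated airway cells, and were taken as the probes whose transcript identifier on the array maps to 1 of those symbols. A matched probe was found for 33 of the 37 genes, and each of these 33 passed the filter on dim probes, out of 17628 genes tested in all. Mcidas, Dnaic2, Lrrc23 and Ccdc40 had no matched probe and were not analysed here. Total RNA came from a small frozen piece of the lung of female C57BL/6 mice, which were 5 to 7 weeks old on arrival and acclimatised for 1 to 3 weeks. Each mouse was instilled intratracheally on a single occasion with vehicle, with NRCWE-001 (unmodified, uncharged TiO2) or with NRCWE-002 (modified, positively charged TiO2). The particle doses were 18, 54 and 162 ug. The lungs were taken 1 or 28 days later, which makes 14 groups of 5 mice each except the day 28 vehicle group, which holds 4. The vehicle is called H2O in the sample titles and is described in the series' design as water with 2% serum. Each of the 69 arrays compares 1 lung, labelled with Cy5, with the same reference RNA, a commercial mix of mouse RNA labelled with Cy3. Values are log2 ratios of lung over reference.

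Motile cilia of the airway beat to move mucus and trapped particles out of the lung. Each is built around the axoneme, a ring of microtubule doublets around a central pair, whose bending is driven by outer and inner dynein arms and regulated by radial spokes and linker complexes. The genes for these parts are switched on together in multiciliated cells by transcription factors, among them Foxj1 and the Rfx family. In whole lung tissue, a lower level can mean fewer ciliated cells or less RNA in each, and these cannot be told apart.

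Since the members are known to share regulators, the reference promoters were read from RefSeq (GRCm38.p6), from 250 bases before to 50 bases after each start. A promoter was listed for 32 of the 37 genes, and not for Foxj1, Dnaaf1, Tppp3, Rsph1 and Rsph4a. The core letters bound by Rfx factors, GTTGCC, were present on either strand in 17 of the 32 (53.1%), against 14.1% of the 27025 symbols with a promoter. With the looser form GTTNCC, which takes in every GTTGCC match, the shares were 28 of 32 (87.5%) and 48.8%. The forkhead letters TGTTTAC were present in 1 of 32 (3.12%, Ak7), against 4.05% of all symbols. Some genes have more than 1 listed start, and a match in any of their windows was counted. These matches describe letters only. The promoters of the 5 members that moved most closely with the others between lungs, among those with a listed promoter, are shown because they carry these letters in different numbers. GTTNCC matches on either strand are in capitals, and each sequence reads 5′ to 3′ along the gene's strand.
Cfap52: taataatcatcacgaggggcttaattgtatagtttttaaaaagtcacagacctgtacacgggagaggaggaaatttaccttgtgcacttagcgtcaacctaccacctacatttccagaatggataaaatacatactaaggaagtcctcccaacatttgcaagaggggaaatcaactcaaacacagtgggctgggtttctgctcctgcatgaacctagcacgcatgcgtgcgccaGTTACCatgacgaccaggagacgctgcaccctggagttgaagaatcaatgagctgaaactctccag
Ccdc113: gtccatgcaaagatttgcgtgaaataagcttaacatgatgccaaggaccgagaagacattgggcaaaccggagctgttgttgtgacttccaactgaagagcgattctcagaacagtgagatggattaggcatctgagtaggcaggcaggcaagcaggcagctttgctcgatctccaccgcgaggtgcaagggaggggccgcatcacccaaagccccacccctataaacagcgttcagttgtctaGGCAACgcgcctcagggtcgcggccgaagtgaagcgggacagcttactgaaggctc
Tekt1: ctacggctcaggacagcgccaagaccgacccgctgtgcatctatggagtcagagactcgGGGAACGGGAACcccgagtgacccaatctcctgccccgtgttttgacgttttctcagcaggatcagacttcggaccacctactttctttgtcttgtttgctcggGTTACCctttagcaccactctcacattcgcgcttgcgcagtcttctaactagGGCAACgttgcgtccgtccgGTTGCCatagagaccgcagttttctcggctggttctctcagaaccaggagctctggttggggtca
Drc1: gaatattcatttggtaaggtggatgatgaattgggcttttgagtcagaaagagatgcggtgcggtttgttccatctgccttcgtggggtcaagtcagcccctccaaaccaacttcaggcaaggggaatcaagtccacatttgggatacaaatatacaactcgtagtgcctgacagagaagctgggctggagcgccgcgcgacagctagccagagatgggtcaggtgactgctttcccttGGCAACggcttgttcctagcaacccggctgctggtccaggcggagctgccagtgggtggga
Ak7: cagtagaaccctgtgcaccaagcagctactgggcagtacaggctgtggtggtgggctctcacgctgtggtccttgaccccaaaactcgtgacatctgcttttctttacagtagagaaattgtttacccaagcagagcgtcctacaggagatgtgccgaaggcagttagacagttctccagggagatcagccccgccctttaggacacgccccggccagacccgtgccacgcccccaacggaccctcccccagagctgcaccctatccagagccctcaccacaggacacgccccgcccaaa
The windows lie at chr11:67965593-67965892 (- strand) for Cfap52, chr8:95533850-95534149 (+ strand) for Ccdc113, chr11:72361833-72362132 (- strand, the first of 2 listed windows) for Tekt1, chr5:30281143-30281442 (+ strand) for Drc1 and chr12:105705732-105706031 (+ strand) for Ak7. Tekt1 has 5 matches in its printed window, Cfap52, Ccdc113 and Drc1 have 1 each, and Ak7 has none.

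The arrays varied in quality, with 61.4% to 87.8% of spots well above background in the lung channel and no saturated spot. The median correlation of an array with the others was below 0.94 for 11 arrays, among them all 3 of one slide's NRCWE-002 day 28 lungs and 4 arrays of another slide. No member was called without these 11 arrays. Each array was a separate mouse.

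All 33 members were measured in the lung on at least 24 arrays, and 30 of them were well above background on all 69. The lung exceeded the reference on average in 29 members, and in 21 by more than 1 on the log2 scale. Among the regulators, the lung-over-reference log2 ratio of Foxj1, the master regulator of motile ciliogenesis, averaged 3.29 and ran from 1.51 to 4.15 over the arrays, while those of Rfx2 and Rfx3 averaged -0.08 and 0.012. Of the structural genes, Tppp3, a tubulin-binding protein, averaged 5.13, Drc1, a nexin-dynein regulatory complex subunit, 4.00, and Tekt1, a tektin of the doublet, 3.13. Dnali1, an inner arm light intermediate chain, ranged over 6.57-fold between lungs, Ccdc113 over 7.16-fold and Foxj1 over 6.22-fold. The spread between lungs of a group was above the 90th percentile of all genes in 15 of the 33 members.

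The mean log2 ratio over the 33 members was taken as a score for each lung. It ran from 0.88 in 1 lung of the NRCWE-002 54 ug day 1 group to 2.23 in 1 lung of the NRCWE-001 54 ug day 28 group, a 2.54-fold range, and the SD within groups was 0.25. In the day 1 vehicle lungs the score was 1.41, 1.52, 1.56, 1.56 and 1.63, and in the day 28 vehicle lungs 1.24, 1.55, 1.59 and 2.05. The day 28 vehicle lungs therefore spread further than the day 1 vehicle lungs (SD 0.33, n = 4, and 0.079, n = 5).

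**Figure D1:**
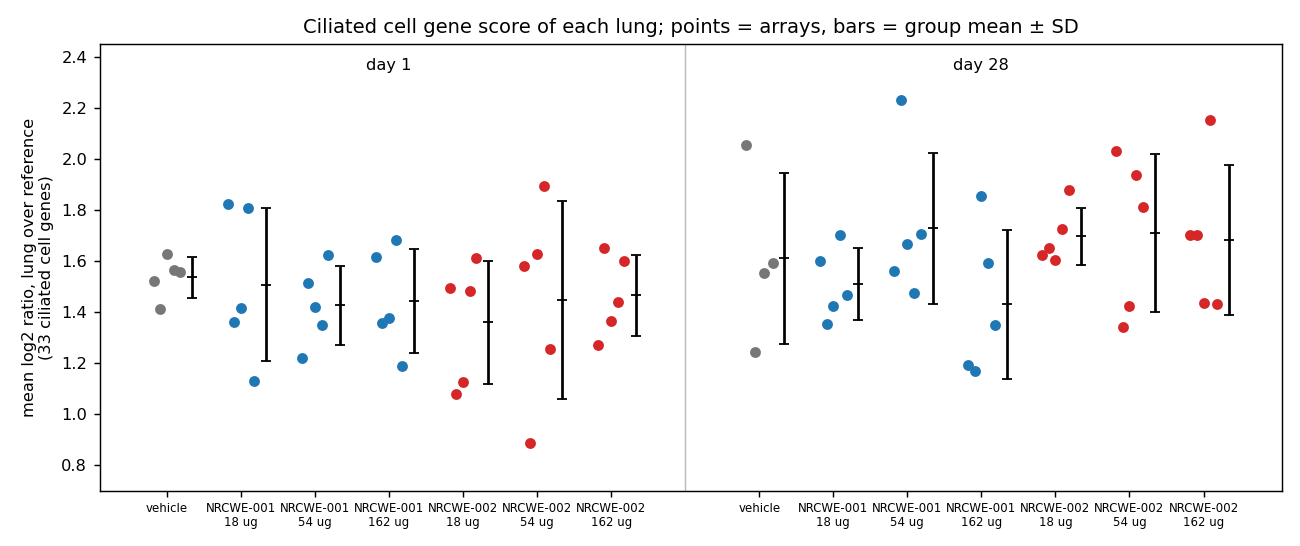
The mean log2 ratio of lung over reference for the 33 ciliated cell genes is plotted for each array (points; grey vehicle, blue NRCWE-001, red NRCWE-002), with the group mean and SD as bars, for day 1 on the left and day 28 on the right. Scores run from 0.88 to 2.23 and every exposed group overlaps the vehicle group of its day.

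At day 1 the score averaged 1.54 in vehicle lungs and between 1.36 and 1.51 in the 6 exposed groups. The lowest exposed mean was that of NRCWE-002 18 ug (1.36 ± 0.24, SD, n = 5), and the 162 ug groups stood at 1.44 ± 0.20 for NRCWE-001 and 1.47 ± 0.16 for NRCWE-002 (SD, n = 5). For NRCWE-002 18 ug the difference from vehicle was -0.18 pooled and -0.0060 within the 2 slides that held both. For NRCWE-002 54 and 162 ug the differences were -0.088 and -0.070 pooled, and -0.14 and -0.24 within 2 slides each. For NRCWE-001 54 and 162 ug they were -0.11 and -0.093 pooled, and -0.14 and -0.072 within 3 slides each. The lowest scores of all (0.88, 1.08, 1.13, 1.13 and 1.17) were on scan day 9, on slides without a vehicle lung. Replicates 2 and 3 of NRCWE-002 18 ug were among them. At day 28 the vehicle mean was 1.61, and the exposed means lay between 1.43 for NRCWE-001 162 ug (SD 0.29, n = 5) and 1.73 for NRCWE-001 54 ug (SD 0.30, n = 5). Doses did not order the day 28 means: for NRCWE-001 they were 1.51, 1.73 and 1.43 at 18, 54 and 162 ug, and for NRCWE-002 1.70, 1.71 and 1.68. Some exposed lungs were outside the range of the vehicle lungs in 9 of the 12 groups, but no group lay wholly outside it. Between groups lay 22.0% of the sum of squares of the score, where 19.1% of the degrees of freedom were. Of what remained, 49.6% lay between slides, for 30.9% of the degrees of freedom. The part of the slide in the score was not tested. Within the 1 to 3 slides that held both an exposed and a vehicle lung of the same comparison, the mean difference in score ran from -0.26 (NRCWE-002 162 ug day 28, pooled value 0.073) to 0.50 (NRCWE-001 54 ug day 28, pooled value 0.12). For the 3 NRCWE-002 doses at day 28 the pooled differences were 0.086, 0.098 and 0.073 and those within slides -0.21, -0.10 and -0.26, so the direction turned, and it turned for NRCWE-001 18 ug too, at day 1 (-0.029 and 0.013) and at day 28 (-0.10 and 0.078). Single lungs turned the direction too. Without vehicle day 28 replicate 2, whose score was 1.24, the differences of the 3 NRCWE-002 doses at day 28 were -0.036, -0.025 and -0.049, and that of NRCWE-001 54 ug was -0.0048. Without vehicle day 28 replicate 1 the difference of NRCWE-001 18 ug was 0.047. The other turns came from exposed lungs. Without replicate 2 of its own group NRCWE-001 54 ug at day 28 gave -0.0083 and NRCWE-002 54 ug at day 1 gave 0.053, without its replicate 4 NRCWE-002 162 ug at day 28 gave -0.044, and without its replicate 2 or 5 NRCWE-001 18 ug at day 1 gave 0.0078 or 0.066.

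No member was called in any of the 19 comparisons, which were 12 of a dose with its vehicle, 4 F-tests over the doses, 2 of the particles and 1 of the vehicle groups. Calls were made with limma at a Benjamini-Hochberg adjusted p of 0.05 within each comparison of all 17628 genes. The share of all genes called was 0.579% for NRCWE-001 162 ug day 1, 0.596% for NRCWE-002 162 ug day 1, 0.193% for NRCWE-001 18 ug day 28, 0.0454% for NRCWE-001 162 ug day 28, 0.0624% for NRCWE-002 54 ug day 1 and 0.00567% for NRCWE-002 162 ug day 28. The other 6 dose comparisons called 0% of genes. The F-tests over the doses called 0.698% and 0.477% of genes for NRCWE-001 at day 1 and day 28, and 0.823% and 0% for NRCWE-002. The particle comparisons called 0.125% at day 1 and 4.75% at day 28, and the comparison of the vehicle groups called 0%. At an unadjusted p of 0.05, the members that passed for NRCWE-001 at 18, 54 and 162 ug were 0, 1 and 0 of 33 at day 1, where 4.91%, 4.55% and 7.07% of all genes passed, and 0, 0 and 2 at day 28, where 8.16%, 2.9% and 8.63% passed. For NRCWE-002 they were 0, 1 and 2 at day 1 (2.97%, 5.83% and 8.94% of all genes) and 0, 0 and 0 at day 28 (6.08%, 4.96% and 6.71%). In each of the 12 the share of members was below that of all genes. With an unadjusted p of 0.05, 0 members passed for particles at day 1 (7.32% of all genes), 7 for particles at day 28 (22.2%) and 0 for the vehicle groups (5.75%). In the F-tests, 1 member passed at an unadjusted p of 0.05 for NRCWE-001 at day 28 and 0 in the other 3, against 9.03%, 7.87%, 7.79% and 4.35% of all genes.

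The members' median log2 change lay between -0.20 (NRCWE-002 18 ug day 1) and 0.13 (NRCWE-001 54 ug day 28) over the dose comparisons, where the median over all genes was between -0.011 and 0.012. More members were lower than vehicle in every day 1 comparison, from 17 of 33 for NRCWE-001 18 ug to 31 of 33 for NRCWE-002 18 ug. In the latter comparison the score differed by -0.18 pooled, but by -0.0060 within the 2 slides that held both groups. For NRCWE-002 162 ug at day 1 it differed by -0.070 pooled and by -0.24 within slides. The other day 1 comparisons are given with the scores above. At day 28 the direction varied: for NRCWE-001, 26 of 33 were lower at 18 ug, 25 of 33 higher at 54 ug and 30 of 33 lower at 162 ug, while 24 to 27 of 33 were higher in the NRCWE-002 groups. Members move together between lungs, as described further on, so these counts are not of independent genes. The comparisons of a day also share the same vehicle lungs, so they are not independent of each other. The 95% interval of the change lay inside a 2-fold change in either direction for 31 to 33 of the 33 members in each dose comparison, and it reached a median of 0.39 at day 1 and 0.41 at day 28 to either side of the estimate on the log2 scale. These intervals come from the fit of group means, which takes no account of slide or scan day.

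**Figure D2:**
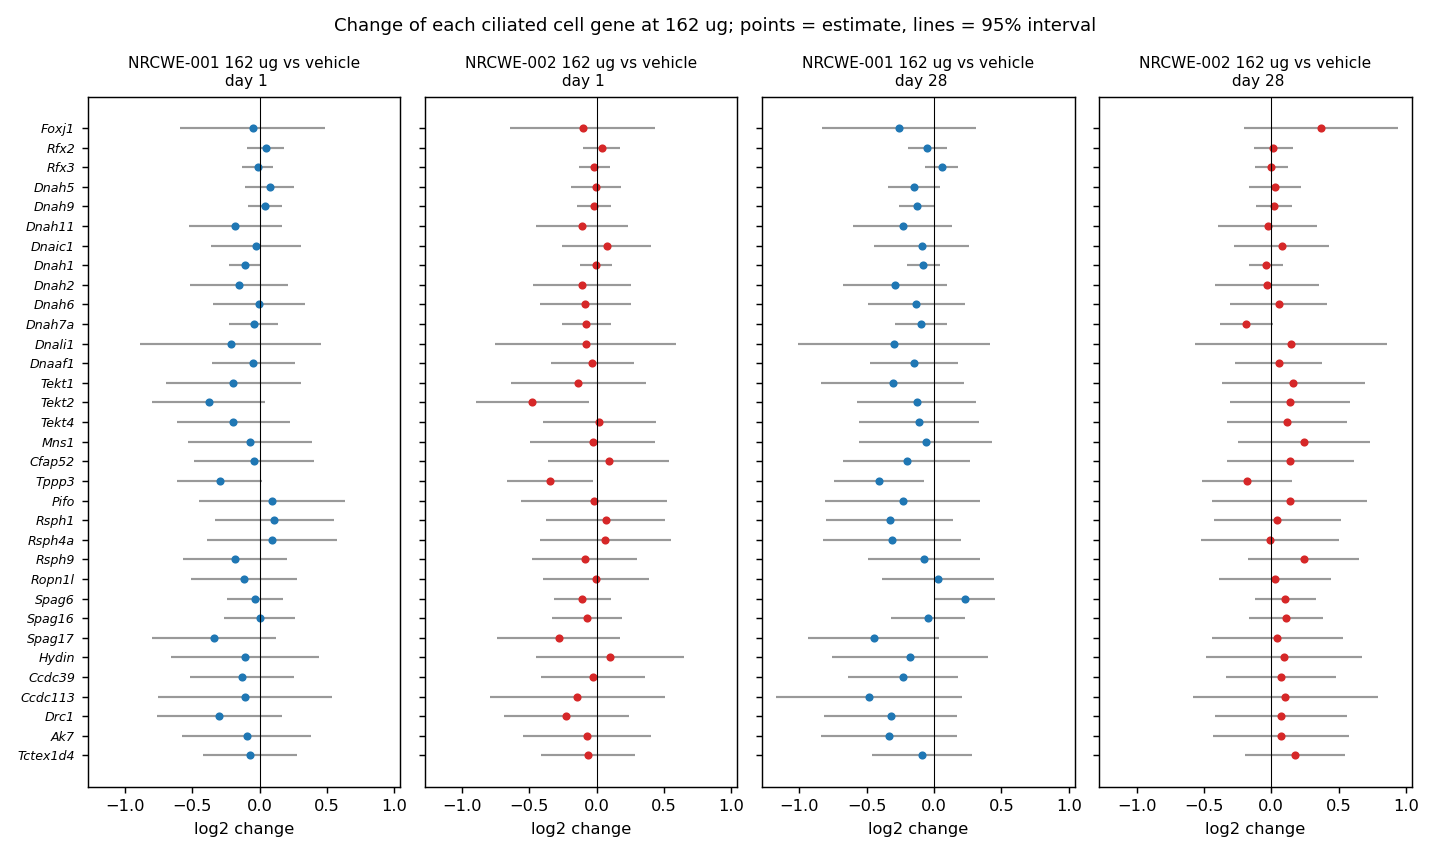
The log2 change of each of the 33 members at 162 ug against the vehicle group of the same day is plotted as a point with its 95% interval as a line, with day 1 in the first pair of panels and day 28 in the other. No member was called. Tekt2 and Tppp3 are the members whose intervals lie below 0 for NRCWE-002 at day 1. For NRCWE-001 at day 28 the interval of Tppp3 lies below 0 and that of Spag6 (0.23, and 0.093 with the slide as a block) above 0.

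Tppp3 had the lowest p of the members in several comparisons. In the day 1 vehicle lungs its log2 ratio was 5.14, 5.19, 5.21, 5.26 and 5.46, and after 162 ug of NRCWE-002 4.67, 4.83, 4.90, 4.93 and 5.19. The groups overlap by 1 lung, and the difference was -0.35 (SE 0.16, adjusted p = 0.48). After 162 ug of NRCWE-001 at day 1 the values were 4.83, 4.92, 4.95, 5.03 and 5.06, all below the lowest vehicle lung, with a difference of -0.30 (SE 0.16, adjusted p = 0.77). It was also lower than each vehicle lung after 54 ug of either particle at day 1 (-0.35 for NRCWE-001 and -0.38 for NRCWE-002). All of these day 1 comparisons share the same vehicle lungs. At day 28 the difference was -0.41 for NRCWE-001 162 ug (adjusted p = 0.43) and -0.18 for NRCWE-002 162 ug (adjusted p = 0.89). With the slide as a block in the fit, these differences were -0.38 for NRCWE-002 162 ug (adjusted p = 0.083) and -0.25 for NRCWE-001 162 ug at day 1, -0.19 for NRCWE-001 54 ug and -0.31 for NRCWE-002 54 ug at day 1, and -0.16 for NRCWE-001 162 ug at day 28, and Tppp3 was not called. With scan day as a block instead, NRCWE-002 162 ug at day 1 gave -0.38 with an adjusted p of 0.032, in a fit that called 4.46% of all genes, and the F-test over the doses of NRCWE-002 at day 1 called Tppp3 too (adjusted p = 0.028, 4.1% of all genes called). Tekt2, a tektin of the doublet, differed by -0.38 for NRCWE-001 162 ug and -0.48 for NRCWE-002 162 ug at day 1 (adjusted p = 0.80 and 0.44). With the slide as a block in the fit, Tekt2 differed by -0.63 for NRCWE-002 162 ug at day 1 (adjusted p = 0.14) and was not called. Its values were 2.94 to 3.35 in vehicle lungs, 2.64 to 2.83 after NRCWE-001, without overlap, and 2.20 to 3.04 after NRCWE-002. The exposed lungs did not overlap the vehicle lungs in 0, 1 and 2 of 33 members for NRCWE-001 at 18, 54 and 162 ug at day 1 (1.42%, 3.23% and 3.4% of all genes) and in 0 members for each dose at day 28 (2.69%, 1.27% and 2.25%). For NRCWE-002 these were 1, 1 and 0 members at day 1 (2.01%, 2.94% and 4.9% of all genes) and 1, 0 and 0 at day 28 (1.45%, 1.37% and 1.07%). The other 2 were Rsph4a, a radial spoke head protein, at NRCWE-002 18 ug day 1, and Dnah7a, an inner arm heavy chain, at NRCWE-002 18 ug day 28, both lower than vehicle. In addition, at 162 ug the 2 members with the largest change at day 28 were Ccdc113 (-0.48) and Spag17 (-0.45) for NRCWE-001, and Foxj1 (0.37) and Mns1 (0.24) for NRCWE-002, none of them called (adjusted p = 0.76, 0.62, 0.85 and 0.90). With the slide as a block these were -0.14, -0.20, 0.14 and 0.27. They also moved with single lungs. Without vehicle day 28 replicate 1 the difference was -0.21 for Ccdc113, -0.31 for Spag17 and 0.60 for Foxj1, and without vehicle day 28 replicate 2 it was -0.75, -0.63 and 0.14. For Mns1 it was 0.064 without NRCWE-002 162 ug day 28 replicate 4 and 0.35 without replicate 1 of that group. Spag17, a central pair protein, also differed by -0.34 for NRCWE-001 162 ug at day 1 (adjusted p = 0.92).

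Foxj1 differed most between the particles at day 28. Its log2 ratio was 2.57 to 4.15 (median 3.25) in 15 lungs after NRCWE-001 and 3.08 to 4.11 (median 3.61) in 15 lungs after NRCWE-002, with overlap. The difference was 0.45 (95% interval 0.14 to 0.76, adjusted p = 0.074), which did not pass the threshold. With the slide as a block it was 0.09 (adjusted p = 0.98), and without the 11 arrays that stood apart 0.32 (adjusted p = 0.47). It was called when 1 of 3 single lungs was left out: NRCWE-001 54 ug day 28 replicate 2 (0.51, adjusted p = 0.041), NRCWE-002 162 ug day 28 replicate 5 (0.49, adjusted p = 0.041) or NRCWE-002 54 ug day 1 replicate 2 (0.45, adjusted p = 0.034). Only 2 of the slides held lungs of both particles at day 28, out of 7 with NRCWE-001 and 6 with NRCWE-002. The other 6 members with an unadjusted p under 0.05 in that comparison did not pass the threshold either. Tekt1, Ccdc39, Dnah2 and Dnah9 were at 0.33, 0.25, 0.22 and 0.083, and with the slide as a block at 0.066, 0.034, 0.042 and 0.053. Spag6 and Dnah7a were at -0.14 and -0.13, and with that block at -0.013 and -0.11. With median centring in place of loess, Dnah9 alone of the members was called (0.14, adjusted p = 0.02), in a fit that called 25.6% of all genes. At day 1 the particles differed by -0.09 in Foxj1 (95% interval -0.40 to 0.22). The difference between days in the response was not tested.

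The other genes of the cilium were read against the share of all genes called. Of 53 other motile cilium genes, 0 were called in any dose comparison, and 1 (Efhc2, -0.32, adjusted p = 0.03) in the particle comparison at day 28. Of 20 regulators of multiciliogenesis and basal body genes, 29 intraflagellar transport genes and 19 genes of the BBSome and the primary cilium, E2f5 and Ttc21b alone were called, in that comparison and lower for NRCWE-002 (-0.22 and -0.28, adjusted p = 0.04 and 0.028). That comparison called 4.75% of all genes, so that 1 of 53, 1 of 20, 1 of 29 and 0 of 19 lie near or under the share of all genes and say nothing particular of these lists. With the slide as a block, none of these 3 was called (adjusted p = 0.83, 0.99 and 0.98).

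The members moved together from lung to lung. After removal of the group means, the correlation of each member with the mean of the others over the 69 arrays had a median of 0.86, and was above 0.8 in 23 of 33 members. The arrays share slides and the reference RNA, so these are descriptions. With slide removed too, it was above 0.8 in 25, and without the 11 arrays that stood apart its median was 0.87. The closest were Dnaaf1, a factor for the assembly of dynein arms (0.95), Cfap52 (0.95), Ccdc113 (0.94), Tekt1 (0.94) and Drc1 (0.94). Of the measured regulators, Foxj1 stood at 0.83, but Rfx2 and Rfx3 at 0.31 and 0.37. With slide removed too, Rfx2 and Rfx3 were at 0.43 and 0.53. Over all 528 pairs of members the median correlation was 0.68.

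**Figure D3:**
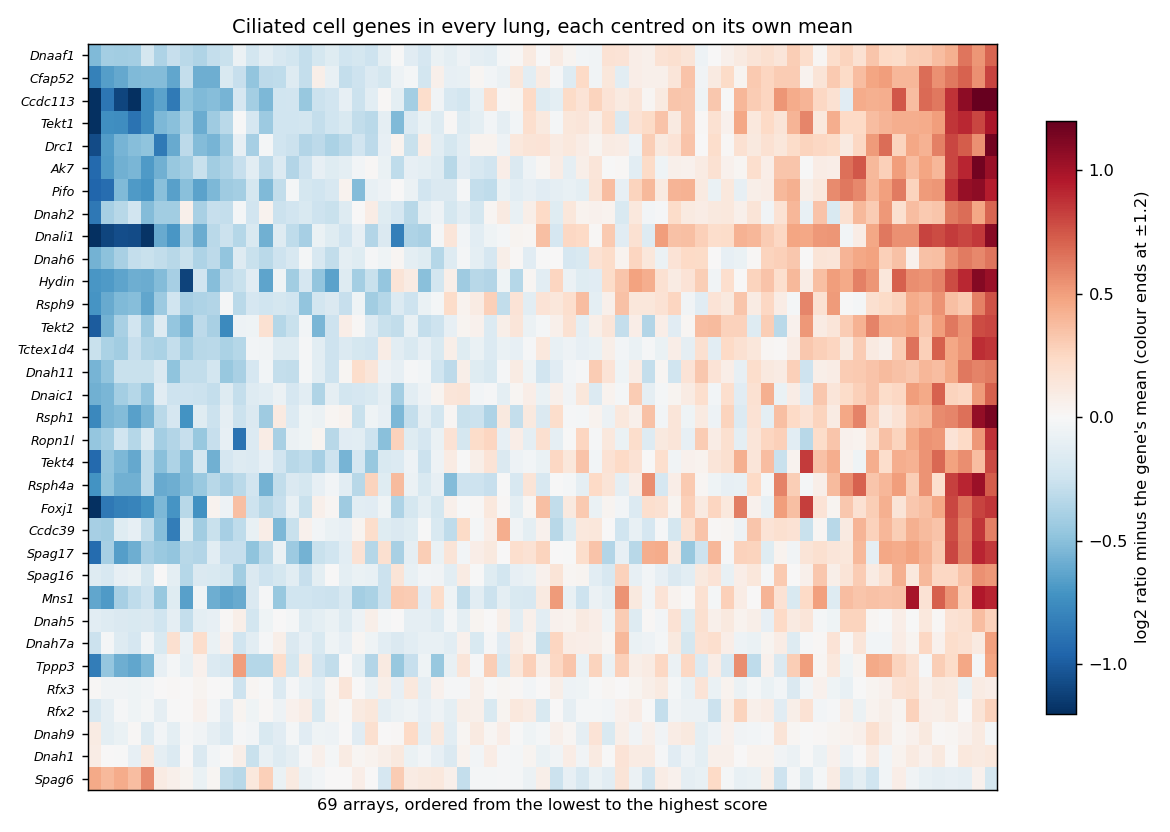
Each row is 1 of the 33 members, ordered by its correlation with the other members, and each column 1 of the 69 arrays, ordered by score, with the log2 ratio minus the member's mean over all arrays as colour. Most rows turn from blue to red along the arrays, and the lowest rows, with Spag6 at the bottom, do not.

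The members furthest from this pattern were Spag6, Dnah1 and Dnah9. Spag6, a central pair protein, had a correlation of -0.40 with the mean of the others. Its probe was well above background in the lung on 24 of 69 arrays, and the probe of its close relative Spag6l, which is not a member, had a correlation of 0.94 with the member score. Dnah1, an inner arm heavy chain, and Dnah9, an outer arm heavy chain, had correlations of 0.27 and 0.28, and each varied with an SD of under 0.1 within groups. With slide removed too, these correlations were -0.034 for Spag6, 0.48 for Dnah1 and 0.20 for Dnah9. In Rfx3, Dnah5, Dnah9, Dnah1 and Dnah7a, each with 3 probes, the lowest correlation between probes of the gene was -0.11, 0.256, 0.239, 0.018 and 0.064. Thus not all of their 3 probes followed each other closely, and the lowest value does not show how the other pairs stood. In Tekt1, Ropn1l and Ak7 the 2 probes, a single pair, did follow each other (0.78, 0.938 and 0.731). The 2 probes of Dnaaf1, Dnah2 and Dnah6 had correlations of 0.15, 0.294 and 0.367. Tppp3 had a correlation of 0.52 with the mean of the others, and 0.62 with slide removed.

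**Figure D4:**
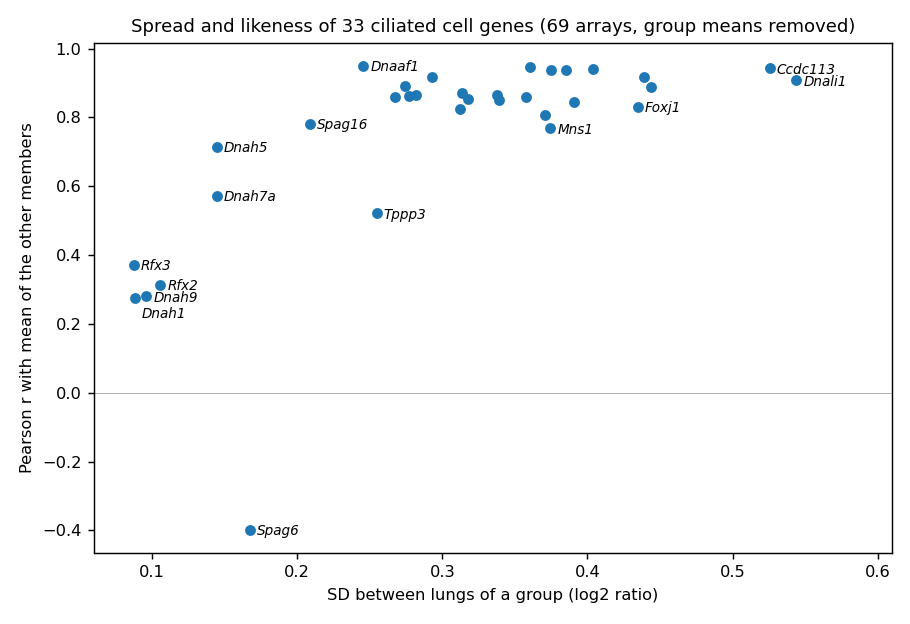
The Pearson correlation of each member with the mean of the other members (y, 69 arrays, group means removed) is plotted against its SD between lungs of a group (x, log2 ratio). Members with an SD above 0.25 lie between 0.52 and 0.95, Dnaaf1 at an SD of 0.246 is at 0.95, and those with an SD under 0.15 lie at or below 0.72.

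Genes that were not members followed the score as closely. The 15 non-members most like it had correlations of 0.94 to 0.97 and were Fank1, Agr3, Mycbpap, Morn3, 1600029I14Rik, Ttc25, Armc3, Cfap45, Mdh1b, Nek5, Cfap43, Fam166c, BC051019, Fam47e and Ppp1r42. Ttc25 docks outer dynein arms, Cfap43 and Cfap45 are axonemal proteins and Nek5 is a kinase of the NIMA family. Across all 17628 genes the correlation had a median of 0.027, with 95% of genes between -0.44 and 0.67. Among the 100 genes most like the score were 11 members and 24 of the 53 other motile cilium genes. The score here holds each member itself, so the count of members is partly fixed by that. The score over those 53 genes had a correlation of 0.98 with the member score (Spearman's rho 0.98, and 0.98 without the 2 lungs furthest from the median). With slide removed too it was 0.995. The intraflagellar transport list had 0.75 (0.94 with slide removed), the multiciliogenesis list 0.71 (0.79) and the BBSome and primary cilium list 0.51 (0.81). These are correlations of list means. The median over single genes was 0.47, 0.14 and 0.20, and 14 of 29, 5 of 20 and 6 of 19 genes were above 0.5. Trp73, a transcription factor upstream of Foxj1, had 0.93, Ccno 0.70 and Myb 0.69, while Deup1 had 0.47, Rfx1 0.09 and E2f5 0.06.

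The lists of other cell types were set beside the score, since each array held a piece of whole lung. Club cell markers followed it with a correlation of 0.87 over the list (rho 0.87), goblet and mucus genes with 0.79 and cardiac muscle genes with 0.65. With slide removed these were 0.93, 0.79 and 0.69. Within the club list, Scgb3a1 had 0.83 and Cldn10 0.79, but Scgb1a1 and Cyp2f2, the most typical club cell markers, 0.17 and 0.28. With slide removed the latter were at 0.81 and 0.74. Smooth muscle genes had 0.50 and mesothelium -0.44, and with slide removed 0.63 and -0.40. Alveolar type 2 genes had 0.18, alveolar type 1 genes 0.04, neutrophil genes 0.06, macrophage genes 0.08, lymphocyte genes 0.26, endothelial genes 0.39, basal cell genes 0.06 and sperm flagellum genes 0.42. With slide removed several of these turned or fell: alveolar type 2 genes were at -0.23, alveolar type 1 genes at -0.29, neutrophil genes at -0.29, macrophage genes at -0.23 and lymphocyte genes at -0.15. Endothelial genes were then at 0.0033, basal cell genes at -0.043 and sperm flagellum genes at 0.35. The list means can rest on few genes. Without slide removal the median over single genes was 0.012 for sperm flagellum genes, with 1 of 9 above 0.5. For smooth muscle genes it was 0.22, with 4 of 10 above 0.5, and for club cell genes 0.41, with 6 of 13. The score also correlated with the share of spots above background (r = -0.41). The part of each of these in the score was not tested.

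**Figure D5:**
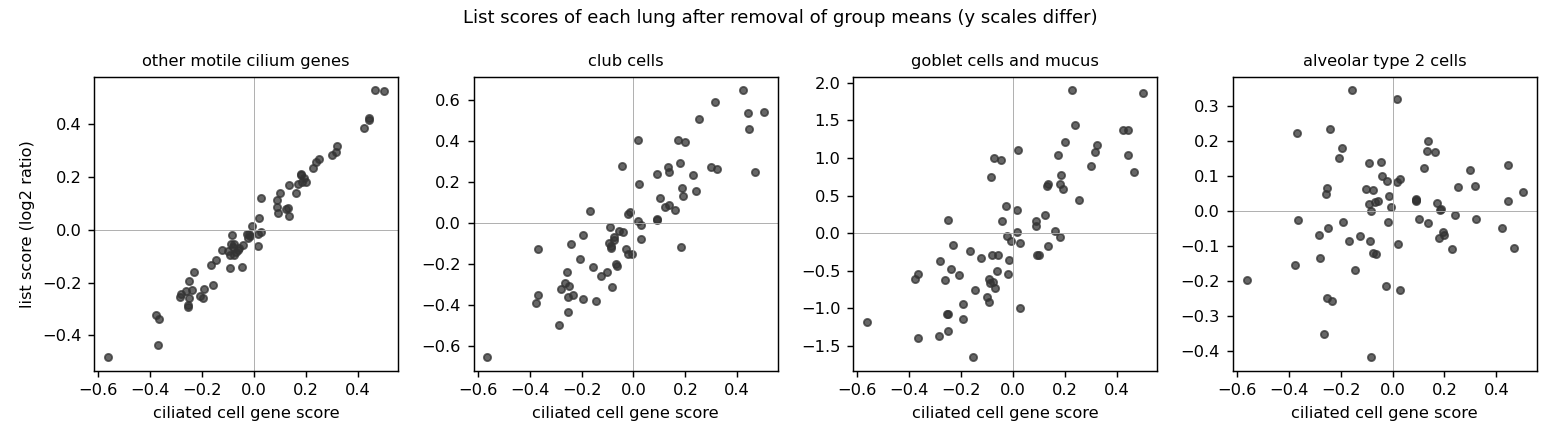
For each of the 69 arrays, the score of a gene list (y, log2 ratio, scales differ) is plotted against the ciliated cell gene score (x), both after removal of group means. Other motile cilium genes (r = 0.98), club cell genes (0.87) and goblet and mucus genes (0.79) rise with it, and alveolar type 2 genes (0.18) do not.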

How the data were processed

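RNA of 69 single mouse lungs was measured on 2-colour arrays against a shared reference RNA, with 1 mouse per array. Per the file headers, the deposited scanner files hold spot and background intensity and flags for spots well above background, from Agilent Feature Extraction 11.0.1.1. The authors also deposited a table of LOWESS-normalized log2 ratios, used here as an alternative. The scanner intensity was chosen as the main source although the rule for the members names that table. The 2 sources correlated at 0.9875 to 0.9955 per array. Intensity was background-corrected by normexp (offset 50, with the fit leaving out spots of outlying local background, beyond 10 MAD of their array's median) and normalized by loess within arrays. A probe was kept when well above background in the lung channel on at least 4 of 69 arrays. Of 41174 probes, 27479 (66.7%) matched a RefSeq symbol, and probes of a gene were combined by the median, which gave 17628 genes, 11356 with 1 probe. Array number limits the precision.

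A fit of 14 group means was made in limma 3.58.1 (R 4.3.3). It was also run on simulated data with independent noise for each gene and array. That noise held no slide or scan day effect, so the run cannot show how the fit behaves with such effects. P-values were adjusted by the Benjamini-Hochberg method within each comparison. Scores, correlations and lists carry no test. The alternatives covered background, normalization, probe filter, probe averaging, slide (18) and scan day (12) as blocks, the day, and each array left out. Named were Foxj1, any called member, the 5 members most and the 3 least like the others, the 2 with the largest change at 162 ug per particle and day, the 15 most alike non-members, called genes of the other motile cilium list, Scgb1a1 and Cyp2f2 (Scgb3a2 had no matched probe). The other genes named, and the looser promoter letters GTTNCC, were chosen after their values were seen. Lists covered motile cilium, basal body, intraflagellar transport, BBSome and cell type markers. Members and lists were chosen with earlier results of these data known. Promoter letters were searched in RefSeq sequences (GRCm38.p6).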

Additional observations from a re-analysis of the deposited data

Results flagged for a closer look

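The values of 13 named members and the score were checked for a lung far from the others of its group, in 14 groups each (196 checks), and 11 values, in 7 lungs, were so marked. Chance marks about 1 in 20 groups, and the share marked here was near that. Members move together between lungs, so the checks are not independent of each other. Foxj1 was 1.51 in NRCWE-002 54 ug day 1 replicate 2, where the nearest other lung was at 3.33, and 4.15 in NRCWE-001 54 ug day 28 replicate 2, where the nearest was at 3.32. Tppp3 was 4.30 in that same NRCWE-002 54 ug lung (nearest 4.93), and Drc1 5.16 in that same NRCWE-001 54 ug lung (nearest 4.23). These lungs had the lowest and the highest score of all. The NRCWE-002 54 ug lung was on scan day 9, as were the other lowest scores listed in the Results. Its array had the highest share of spots above background in the lung channel, 87.8%. On the same scan day Foxj1 was 2.43 and 2.47 in NRCWE-002 18 ug day 1 replicates 2 and 3. It was 2.96 in NRCWE-001 54 ug day 1 replicate 4. The part of scan day in these values was not tested. In vehicle day 1 replicate 2, Dnaaf1 was 0.81 (nearest 1.05) and Drc1 3.68 (nearest 4.13). In NRCWE-001 162 ug day 28 replicate 3, Spag17 was 2.27 (nearest 1.47) and Mns1 0.015 (nearest -0.45). The other marked values were in NRCWE-001 162 ug day 1 replicate 4 for Spag6 (-0.74, nearest -0.49), NRCWE-002 54 ug day 28 replicate 5 for Dnah9 (0.29, nearest 0.12) and NRCWE-001 54 ug day 1 replicate 2 for Spag17 (1.83, nearest 1.59). All values are log2 ratios of lung over reference. The score itself marked no lung.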

How the results depend on the processing

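The 19 counts of members were at 0 in 205 of 208 fits with other settings. With scan day as a fixed block, 1 member was called for NRCWE-002 162 ug at day 1 and 1 in the F-test over the doses of NRCWE-002 at day 1, both Tppp3. With median centring 1 member, Dnah9, was called between the particles at day 28. Leaving out each array in turn gave 0 to 1 members between the particles at day 28, and 0 to 0 in the other 18 comparisons. Score differences within slides moved by more than the spread between replicates for NRCWE-001 54 ug at day 28 (0.50), NRCWE-002 162 ug at day 1 (-0.24), NRCWE-002 18 ug at day 28 (-0.21) and NRCWE-002 162 ug at day 28 (-0.26). The cause was not tested. The other 80 of 84 alternatives for the score stayed within that spread, as did all 114 fits without a single lung, although these turned the direction of the score difference in 7 of 12 comparisons. The median correlation of members was 0.86, and 0.81 to 0.88 under its 3 alternatives. No paired analysis was possible because the labels give no replicate numbers that tie mice of different groups to each other, but slide and scan day as blocks and the score within slides were run. Setting aside the 11 arrays that stood apart was chosen after seeing the data.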
